A study of Mus musculus with 13 samples.

Results

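The Cx3cr1+ Vcam1-low macrophages were 452 of the 3093 single cells measured in the F4/80+ selection of EKLF+/+ mouse fetal liver at E13.5, or 14.6% of them (exact 95% binomial interval 13.4% to 15.9%). They were chosen by gene counts within each cell, expressed per 10000 of the cell's counts. A member had at least 200 detected genes, a C1qa, C1qb and C1qc sum of at least 10, Cx3cr1 of at least 2, Vcam1 under 5, and a Tmcc2 and Xpo7 sum under 4. The C1q genes encode the first component of complement and mark macrophages, and Tmcc2 and Xpo7 are transcripts of late erythroid cells. The C1q limit alone held in 1663 cells, and the members made up 27.2% of these (25.1% to 29.4%). The other 1211 C1q cells were 644 with Vcam1 of 5 or more, 374 low in both Vcam1 and Cx3cr1, and 193 at or above the Tmcc2 and Xpo7 limit. The other 1430 cells lay below the C1q limit. Because the measured values chose the members, every single-cell difference given here is a description and carries no test.

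The single-cell library came from F4/80+ cells of pooled littermate livers of one mother, taken with magnetic beads while a peptide kept Icam4 and αv integrin apart, and the selection still held other cells. It was 1 library, so it has no replicate, and its 95% intervals cover counting error only. The study also sequenced bulk RNA of sorted F4/80+ fetal liver cells at E13.5, from mice labelled C57BL/6, in 4 groups of 3 libraries. One comparison was EKLF-/- against EKLF+/+, where EKLF-/- is a germline loss of the erythroid transcription factor EKLF (gene Klf1) in every cell. The other was EKLF/GFP+ against EKLF/GFP-, both wild type for EKLF and carrying pEKLF/GFP, an eGFP transgene under the EKLF promoter. RNA of the EKLF/GFP+ cells was taken with another kit than all other RNA, so kit and group cannot be told apart. The study's methods place the EKLF-null line on a 129S4/SvJae background, which the labels do not name.

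Macrophages of the fetal liver form the centre of erythroblastic islands, where they bind erythroblasts through Vcam1 and other adhesion molecules and clear the nuclei that erythroblasts expel. Cx3cr1, the receptor for fractalkine, is known from precursors of tissue macrophages, microglia and monocyte-derived cells, and is lost as macrophages of the liver become Kupffer cells. Csf1r, the receptor for the macrophage growth factor CSF1, and the transcription factor Maf are shared by most macrophages.

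The members carried the macrophage genes used to describe them. Levels below are the summed counts of a gene over a class of cells per 10000 of that class's summed counts, with exact Poisson limits. Csf1r was at 8.70 in the members and 6.58 in the other C1q cells, and 99.1% of members held a Csf1r count. Maf was at 7.16 against 4.53, also with a count in 99.1% of members. Adgre1, which encodes F4/80, was at 3.68 against 5.89 and was counted in 98.2% of members. Apoe, a lipid carrier, was counted in 100% of members and stood at 33.5 (33.1 to 33.9) against 14.7. C1qb differed little, at 18.5 against 19.3. Counts of these genes were found in other cells too. With every cell thinned to 5000 random counts, Csf1r was in 97.3% of members, 22.2% of cluster 5, a neutrophil-like cluster with a median of 22252 counts, and 14.3% of cluster 6, an erythroid-like cluster with a median of 25119. The thinned shares were 95.1%, 10.6% and 8.67% for Maf, 81.2%, 18.1% and 9.18% for Adgre1, and 99.1%, 56.0% and 51.0% for Apoe. Without thinning they were 56.4% and 53.0% of those clusters for Csf1r, 29.5% and 28.8% for Maf, 54.1% and 37.4% for Adgre1, and 89.1% and 90.9% for Apoe. Of the 10 macrophage markers, C1qb and Cx3cr1 are rule genes, and the other 8 all reached a level of 1. These 8 summed to 62.8 against 41.9.

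The limits cut through continuous distributions for Vcam1 and Cx3cr1. The median member had a Cx3cr1 level of 5.48 (quartiles 3.42 and 8.18) against 0.469 in the other C1q cells. Its Vcam1 level was 0.362 (quartiles 0 and 1.4) against 6.38. Its C1q sum was 40.5 against 47.2. The nearest values inside and outside were 2.002 and 1.998 for Cx3cr1, 4.998 and 5.087 for Vcam1, and 10.059 and 9.961 for C1q. For Tmcc2 and Xpo7 the highest value inside was 2.846 and the lowest outside was 4.112. Within 20% of the Cx3cr1 limit lay 32 cells inside and 24 outside, and within 20% of the Vcam1 limit 21 and 18. The limits rested on few counts for a small number of members: 2 held 1 Cx3cr1 count and 22 held 2, while the median member held 10.

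**Figure D1:**
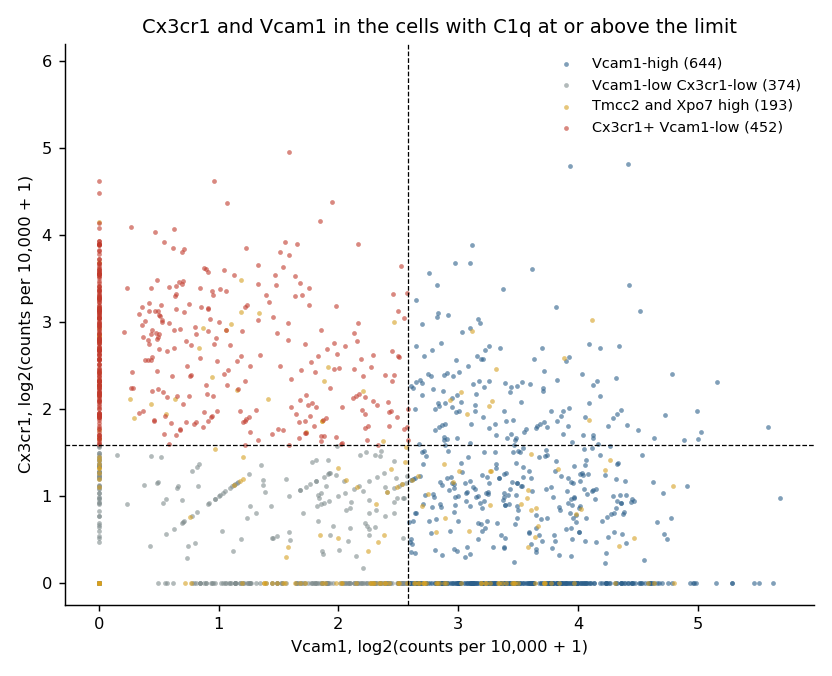
Vcam1 and Cx3cr1 levels in each of the 1663 cells at or above the C1q limit, as log2 of the counts per 10000 plus 1, with dashed lines at the limits and the members marked. The 452 members fill the field of low Vcam1 and high Cx3cr1, and cells lie close to both lines on either side.

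The members were sequenced somewhat deeper than the cells they were compared with. They held a median of 18231 counts (3589 to 85857) and 4389 genes per cell, against 12636 counts and 3490 genes in the other C1q cells. Mitochondrial genes took a median of 4.3% of counts against 4.42%, and globin genes 0.423% against 0.526%. RNA of other cells was present at low levels. The summed level of erythroid markers, with Tmcc2 and Xpo7 of the rule left out, was 0.485 in the members and 2.02 in the other C1q cells, that of neutrophil markers 6.58 against 7.85, and that of hepatoblast markers 2.81 against 3.54. Endothelial markers summed to 1.25 against 3.09 and lymphoid markers to 0.0292 against 0.0123. Monocyte markers stood higher in the members, at 5.46 against 1.79, and at 8.88 in the cells below the C1q limit. F13a1 and Ccr2 belong to that list and are also among the leading genes below. The marker level of a type was the 10th percentile of its marker sum in the cluster highest for it. At or above that of neutrophils, erythroid cells or hepatoblasts lay 5 of 452 members and 153 of 1211 other C1q cells. For erythroid markers these were 0 members and 129 other C1q cells. That list included Tmcc2 and Xpo7, and its cluster was cluster 8, led by Tmcc2, Ypel4 and Xpo7. The rule thus set much of the difference, which is not read as a result. The doublet caller Scrublet marked 0 of 3093 cells, so it has not worked and no doublets were removed.

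Against the other C1q cells, 24 of 1608 genes at a level of 1 or more in either class were at least 2-fold higher in the members (1.49%) and 36 were at least 2-fold lower (2.24%). The median log2 ratio of all these genes was 0.03. Against all other cells 122 of 1613 genes were at least 2-fold higher (7.56%) and 64 lower (3.97%). The genes named next lead a ranking by ratio in which a gene needed a level of 0.5 and a count in 25% of cells. The genes highest in the members included a clotting factor, chemokine receptors and small membrane and actin-binding proteins. The genes lowest included a scavenger receptor, secreted proteins of macrophages and globins.

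F13a1, the catalytic subunit of coagulation factor XIII that crosslinks fibrin, had the highest ratio. It was at 2.22 (2.13 to 2.32) in the members and 0.240 in the other C1q cells, a ratio of 9.25 (8.39 to 10.2). It lies on chr13:36867178-37050244 of GRCm38, on the minus strand. A count was found in 53.1% of members and 13.4% of the other C1q cells. The share was 46.8% in cluster 5 and 7.07% in cluster 6. At 5000 counts per cell these shares were 36.5%, 6.99%, 20.8% and 1.02%. The thinning left out 5 members and 23 other C1q cells that were shallower.

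The leading genes held 2 chemokine receptors, which steer cells along chemokine gradients. Ccr1 was at 0.681 against 0.0862, a ratio of 7.90 (6.68 to 9.37), and was counted in 46.5% of members against 8.67%. Its share was 45.5% in cluster 5 and 1.52% in cluster 6, and at 5000 counts per cell it was 21.7% of members, 3.70% of the other C1q cells and 23.1% of cluster 5. The share in members was thus close to that in the neutrophil-like cells. Ccr2, the receptor through which monocytes leave the marrow toward Ccl2, was at 0.954 against 0.184, a ratio of 5.19 (4.60 to 5.87). Without the 30 members that fell in a cluster led by Ccr2 (cluster 3, below) the ratio was 2.51, so these 6.64% of members set much of it. For the other 14 genes named highest, and for the 15 named lowest, leaving them out moved the ratio by less than 1.5 times. Only 28.5% of members held a Ccr2 count, against 8.84% of the other C1q cells, 6.36% of cluster 5 and 7.07% of cluster 6. At 5000 counts per cell these shares were 16.6%, 3.28%, 1.85% and 0.510%. Both genes lie on chromosome 9, 133 kb apart. Over the 9 listed chemokine receptors, with Cx3cr1 of the rule left out, the summed level was 2.49 against 0.873. None of these reached the level of 1. Among chemokines, Ccl9 was at 0.720 against 0.220, Ccl3 at 0.771 against 0.321 and Ccl4 at 0.435 against 0.238. Of the 3 chemokines at a level of 1 or more 0 passed 2-fold, with a median log2 ratio of -0.67, and all 17 of the list summed to 17.5 against 15.

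Fcrls, a secreted Fc receptor-like scavenger protein known as a marker of mouse microglia, had the highest ratio against all other cells. It was at 1.22 (1.14 to 1.29) in the members and 0.192 in the other C1q cells, a ratio of 6.34 (5.65 to 7.12). Over all 2641 other cells it was at 0.0817, a ratio of 14.9. It was counted in 60.4% of members, 16.9% of the other C1q cells, 2.73% of cluster 5 and 6.57% of cluster 6. Cd5l, a secreted scavenger protein of resident macrophages and one of the lowest genes in the members, is its neighbour, 94.1 kb away on chromosome 3. Fcrls lies on chr3:87250758-87263738 on the minus strand and Cd5l on chr3:87357881-87371073 on the plus strand. Their promoters are shown because the neighbours went opposite ways, with that of Cx3cr1, which the rule used. Each is the 250 bases before the RefSeq start in GRCm38.p6, 5′ to 3′ on the strand of the gene, with AGAGGAA or its reverse complement TTCCTCT, the core to which the macrophage factor PU.1 is known to bind, in capitals. The RefSeq start lies inside the Ensembl gene for Fcrls and Cx3cr1.
Fcrls, chr3:87263525-87263774, minus strand: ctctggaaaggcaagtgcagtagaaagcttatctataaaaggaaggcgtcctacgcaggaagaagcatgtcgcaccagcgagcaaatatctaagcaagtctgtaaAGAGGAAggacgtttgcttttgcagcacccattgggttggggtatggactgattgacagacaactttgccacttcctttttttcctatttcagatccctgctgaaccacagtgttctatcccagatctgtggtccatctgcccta
Cd5l, chr3:87357631-87357880, plus strand: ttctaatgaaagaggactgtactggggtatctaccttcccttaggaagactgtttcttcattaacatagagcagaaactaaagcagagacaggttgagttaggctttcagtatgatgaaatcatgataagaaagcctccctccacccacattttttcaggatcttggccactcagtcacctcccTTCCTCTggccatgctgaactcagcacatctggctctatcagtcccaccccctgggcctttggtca
Cx3cr1, chr9:120068297-120068546, minus strand: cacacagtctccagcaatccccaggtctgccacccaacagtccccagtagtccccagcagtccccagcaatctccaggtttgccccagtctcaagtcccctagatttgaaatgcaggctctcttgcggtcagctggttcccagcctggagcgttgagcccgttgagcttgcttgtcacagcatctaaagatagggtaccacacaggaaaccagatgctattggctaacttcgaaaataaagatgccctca

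The 7 letters were present before both neighbours, starting 145 bases before the start of Fcrls and 66 bases before that of Cd5l, and were not in the Cx3cr1 window. Such a window was found for 41 of the 50 leading genes and 38 of the 50 lowest. The letters stood in 6 of the 41 leading windows (14.6%: Fcrls, Gm1966, Tmem176b, Tmem176a, Apoe and Ptpre), in 3 of the 38 lowest (7.89%: Marco, Cd5l and Fcna) and in 9.85% of 27025 promoters. TGCTGAC or GTCAGCA, a core of Maf sites, stood in 1 leading window (2.44%), in 6 of the lowest (15.8%) and in 4.31% of all. CCACACCC or GGGTGTGG, the core of EKLF sites, stood in 4 leading (9.76%), 4 lowest (10.5%) and 3.68% of all windows. TGACTCA or TGAGTCA, the AP-1 core, stood in 2 (4.88%), 0 and 5.16%. Both strands were searched, and the Maf and AP-1 cores can share bases. These are letter matches and not binding sites.

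The other leading genes fell into a few kinds. Mef2c, a MADS-box transcription factor of myeloid cells and microglia, was at 1.62 against 0.362 (ratio 4.46). At 5000 counts per cell it was counted in 44.1% of members, 11.5% of the other C1q cells, 17.6% of cluster 5 and 1.53% of cluster 6, and without thinning in 74.1%, 29.1%, 47.7% and 9.09%. S100a6, a calcium-binding protein, was at 0.655 against 0.129, and Lsp1, an actin-binding protein of leukocytes, at 0.605 against 0.172. Lsp1 was nearly as high over all other cells, at 0.594. Igfbp4, which binds insulin-like growth factors, was at 1.93 against 0.576, and Emp3, a small membrane protein, at 2.38 against 0.802. Ms4a6b and Ms4a6c, membrane proteins of the same family 34.3 kb apart, were at 0.973 against 0.284 and 2.60 against 0.906. Their reads may be shared between near-identical copies, so each value is uncertain. Tmem176b was at 1.24 against 0.351, and the start of its gene overlaps that of Tmem176a on the other strand. Gm1966 was at 0.576 against 0.135.

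Scavenging and clearance genes were split. Stab1, a clearance receptor known from sinusoids and tissue macrophages, was at 2.49 in the members and 0.919 in the other C1q cells. Dab2, an adaptor for receptor uptake, was at 4.69 against 1.85, and Gas6, the ligand that bridges dying cells to the receptors Axl and Mertk, at 0.649 against 0.345. Axl and Mertk themselves were lower, at 1.88 against 3.49 and 0.963 against 1.67. Marco, a scavenger receptor of resident macrophages, was at 1.38 against 10.4, a ratio of 0.132 (0.125 to 0.140). Cd5l was at 1.54 against 11.5 (ratio 0.133) and Timd4, a receptor for dying cells, at 1.24 against 2.84. Of the 10 scavenger genes at a level of 1 or more, 1 was at least 2-fold higher and 3 at least 2-fold lower, with a median log2 ratio of -0.76. All 21 genes of the list summed to 21.1 against 42.2, and to 26.2 in the cells low in both Vcam1 and Cx3cr1 and 53.2 in the Vcam1-high cells.

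Part of the Marco and Cd5l counts in the members was at the level found in cells that should lack the genes. Marco was counted in 61.3% of members and 86.9% of the other C1q cells, but also in 54.5% of cluster 5 and 61.1% of cluster 6. Cd5l was counted in 64.6% and 89.3%, and in 61.8% and 62.1% of those clusters. At 5000 counts per cell, Marco was in 30.4% of members, 75.4% of the other C1q cells, 19.0% of cluster 5 and 20.9% of cluster 6. The thinned shares of Cd5l were 32.9%, 77.6%, 25.9% and 20.4%. The shares over all members without thinning lay at this background and are not read as expression. The level was uneven among the members, and Marco stood at 6.74 and Cd5l at 8.50 in the 27 members that fell in cluster 1, with a count in 88.9% and 96.3% of them.

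Genes of Kupffer cells, the resident macrophages of liver, were low as a group. Of 12 at a level of 1 or more, 0 were 2-fold higher and 7 were 2-fold lower, with a median log2 ratio of -1.24, and all 15 of the list summed to 35.6 against 85.5. That sum was 55.2 in the cells low in both Vcam1 and Cx3cr1 and 106 in the Vcam1-high cells. Beside Marco, Cd5l and Timd4 these were Clec1b, the podoplanin receptor (0.193 against 1.47), Il18bp, which neutralises interleukin-18 (0.504 against 2.76), Cdh5, a cadherin (0.610 against 2.17), and Hmox1, which degrades heme (11.2 against 27.8). Fcna, a ficolin that starts the lectin pathway of complement, was at 1.93 against 8.47. Paqr9 was at 0.113 against 0.898 and Tmem26 at 0.0977 against 0.744. Sipa1l1, which acts on Rap GTPases, was at 0.230 against 1.35, Crip2, a LIM-domain protein, at 0.206 against 0.993, and Acot1, an acyl-CoA thioesterase, at 0.125 against 0.612. Erythroid transcripts were low too. The embryonic globins Hba-x and Hbb-y were at 0.665 against 3.00 and 5.50 against 22.8, and without the 1 member highest in each at 0.404 and 3.48. Hbb-bs was at 18.6 against 73.9, Hbb-bt at 8.98 against 35, and Slc4a1, the erythrocyte anion exchanger, at 0.129 against 0.782. Near-identical globin genes share reads. The Slc4a1, Hbb-bs and Hbb-bt values move with the 193 other C1q cells chosen for Tmcc2 and Xpo7 and with cells at erythroid marker level. Without the cells at the marker level of other types, the ratios were 0.425 for Slc4a1, 0.428 for Hbb-bs and 0.435 for Hbb-bt, in place of 0.165, 0.252 and 0.256.

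**Figure D2:**
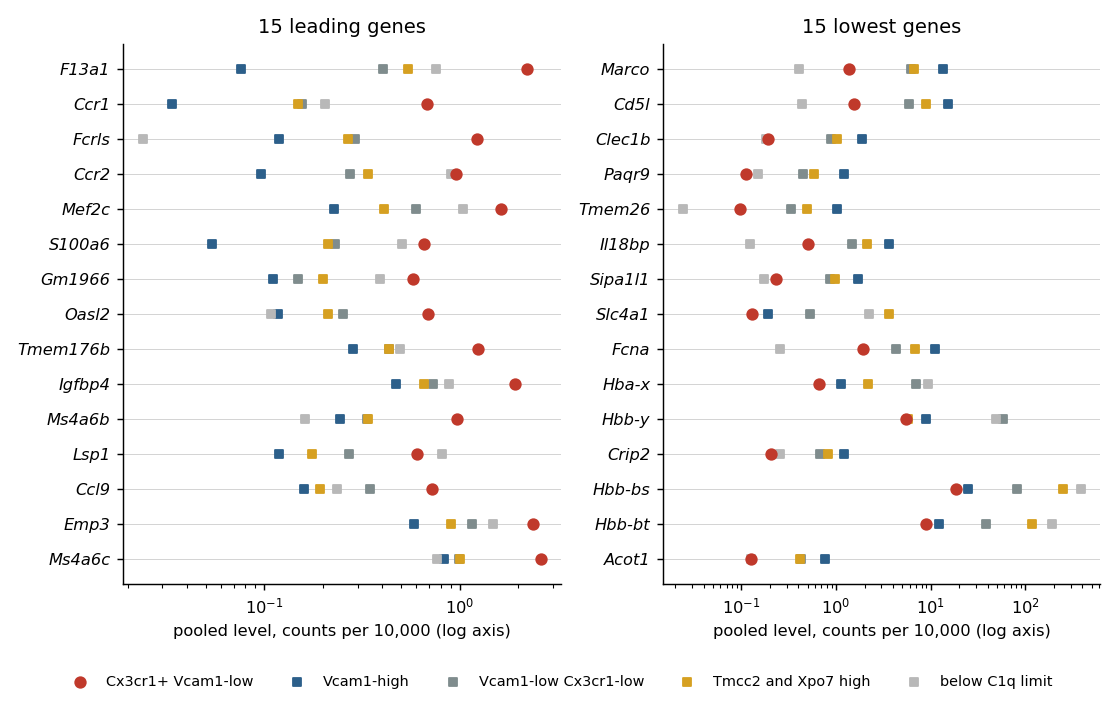
Level of the 15 leading and the 15 lowest genes in 5 classes of cells, as summed counts per 10000 on a log axis, 1 point per class. The members lie above the other C1q classes for the leading genes, as for Fcrls at 1.22, and below them for genes such as Marco at 1.38.

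Klf1 was counted in few of the members. It was at 0.0303 against 0.0725 in the other C1q cells and was counted in 3.76% of members and 6.61% of the others. The share was 3.18% in cluster 5 and 94.4% in cluster 6. Epor, the erythropoietin receptor, was counted in 9.73% of members and 78.8% of cluster 6. The 7 genes that the study names with EKLF in these cells summed to 0.231 against 0.652. That list was chosen by the study on these samples and is not independent evidence.

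Island and iron genes were lower as sums, but few differed by 2-fold. Vcam1 of the rule was left out of the erythroblastic island list. Of its other genes, 4 were at a level of 1 or more and only Hmox1 was 2-fold lower, with a median log2 ratio of -0.75. The list summed to 24.4 against 48.1, and to 32.1 in the cells low in both Vcam1 and Cx3cr1. Hmox1 and Slc40a1 made up most of the difference between 24.4 and 48.1. They and Spic also stand in the iron and Kupffer lists, so the sums are not independent. The adhesion genes Palld (0.470 against 0.382), Maea (0.509 against 0.525) and Itgav (0.711 against 0.793) differed little, and Dnase2a, which digests expelled nuclei, was at 0.850 against 1.12. Of the 12 heme and iron genes at that level, 0 were 2-fold higher and 1 was 2-fold lower, with a median of -0.55, and all 16 summed to 226 against 326, and to 272 in the cells low in both Vcam1 and Cx3cr1. Slc40a1, the iron exporter, was at 9.15 against 15.2, and the ferritin genes Fth1 and Ftl1 at 74.0 against 112 and 116 against 151. Of 20 lysosomal genes 0 passed 2-fold, but their median was -0.32, with Ctsd at 17.5 against 33.2 and Ctsb at 24.9 against 35.4. All 27 lysosomal genes summed to 135 against 176, but the direction turned against the cells low in both Vcam1 and Cx3cr1, which were at 121, while the Vcam1-high cells were at 213. Ctss, a cathepsin of antigen-presenting cells, was at 5.06 against 3.88.

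Complement genes went both ways, and Fc receptor genes differed little. C3ar1, the receptor for C3a, was at 1.27 against 0.473. Cfp, which stabilises the alternative convertase, was at 2.01 against 4.04. Of 11 Fc receptor and ITAM genes 0 passed 2-fold in either direction, with a median of 0.22, and all 18 of the list summed to 65.5 against 55.8. Among transcription factors, 3 of 15 were 2-fold higher: Mef2c, Klf2 (1.78 against 0.841) and Klf6 (2.84 against 1.30). Spic and Nr1h3, factors of iron-handling and lipid-handling macrophages, were at 1.03 against 1.81 and 1.89 against 3.10.

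Genes of microglia and of perivascular macrophages were present in part. With Cx3cr1 of the rule left out, 6 microglia-list genes were at a level of 1 or more, 1 of them 2-fold higher and 0 lower. Cst3 was at 14.4 against 8.58 and Trem2 at 1.75 against 1.06. P2ry12, a defining gene of microglia, was at 0.234 against 0.317 and Tmem119 at 0.125. Of 7 perivascular-type genes 2 were 2-fold higher and 1 lower. Pf4, a platelet chemokine also made by tissue macrophages, was at 9.67 against 5.17, and Mrc1, the mannose receptor, at 3.65 against 2.41. Igf1, a growth factor, was at 1.96 against 4.15, and Folr2, a folate receptor, at 0.426 against 0.935. Lyve1, the hyaluronan receptor, stood at 0.220 against 0.0895, and Cd163 at 0.0168. Of 3 interferon-stimulated genes at a level of 1 or more 1 was 2-fold higher and 0 lower, with a median of 0.50, and all 12 summed to 13.4 against 6.55. Oasl2, below that level, was at 0.686 against 0.170.

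Immediate early and stress genes were also higher in the members, with 3 of 6 past 2-fold and a median log2 ratio of 0.97. Fos was at 1.97 against 0.796. It was uneven among the members, at 2.5 in those of cluster 2 and 0.0651 and 0.528 in those of clusters 0 and 1, which is below the other C1q cells. Hspa1a and Hspa1b, near-identical heat shock genes whose counts cannot be told apart with certainty, were at 2.39 against 1.07 and 2.5 against 1.16. These genes are known to respond to cell isolation, and its part in the values was not tested. Cell cycle genes differed little in their pooled levels. With every cell at 5000 counts, S phase genes summed to 14.9 against 16.4 and G2 and mitosis genes to 19.6 against 21.3, and without thinning Mki67, a proliferation marker, was at 2.56 against 2.60. The median over cells of the G2 and mitosis sum was lower in the members, at 11.1 against 16.6 without thinning.

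**Figure D3:**
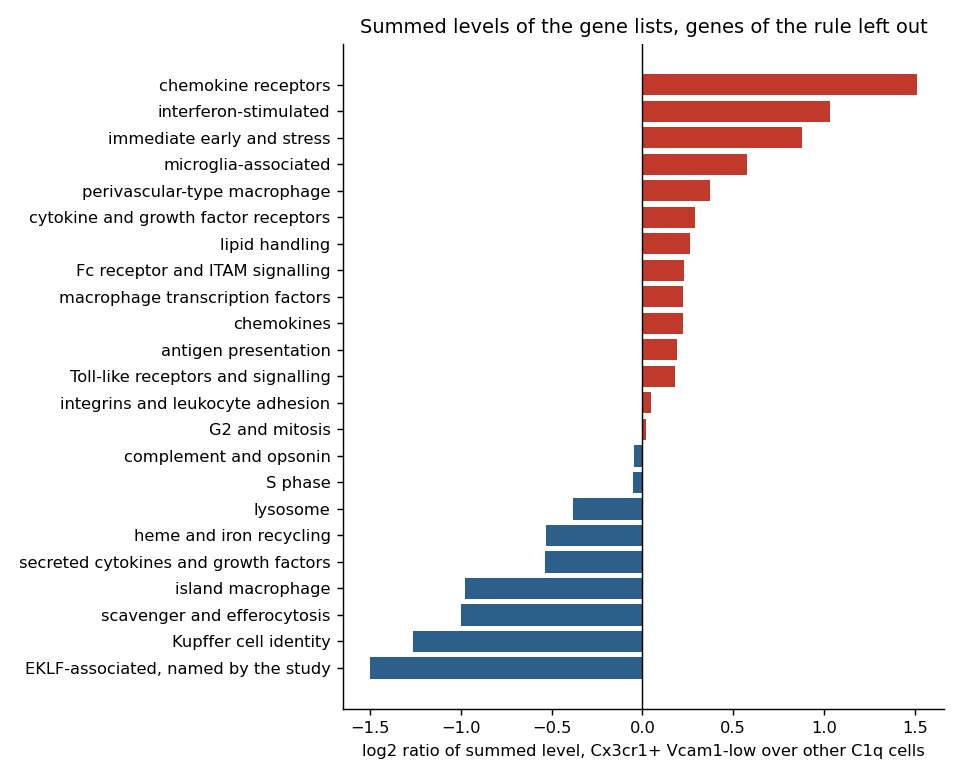
Log2 ratio of the summed level of each of 23 gene lists in the members over the other C1q cells, 1 bar per list from 0, with the genes of the rule left out of every list. Chemokine receptors (2.49 against 0.873) and interferon-stimulated genes (13.4 against 6.55) stand above 0, and the genes named with EKLF (0.231 against 0.652) and Kupffer identity genes (35.6 against 85.5) below it.

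The members were not uniform. Clustering of all 3093 cells placed 289 members (63.9%) in cluster 2, of which they were 76.5%. Another 95 (21%) lay in cluster 0, 30 (6.64%) in cluster 3, 27 (5.97%) in cluster 1 and 11 elsewhere. Cluster 2 was led by Fcrls, Ccl4, Cx3cr1, Dab2, C3ar1 and Stab1, and cluster 1, most of whose cells were Vcam1-high, by Cd5l, Marco, Fcna and Vcam1. Cluster 3 had the highest median monocyte marker sum of the clusters, at 26.0 against a median of 2.83 in the members. Of its 285 cells 245 lay below the C1q limit. Members of clusters 2, 0, 3 and 1 held medians of 19769, 9821, 21109 and 24588 counts.

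Members of the different clusters differed in the leading genes. Cx3cr1, which the rule kept at 2 or more, was at 6.65, 4.55, 7.15 and 4.49 in members of clusters 2, 0, 3 and 1. F13a1 was at 2.48, 0.465, 5.12 and 0.0713 in the same order, and Ccr2 at 0.590, 0.0558, 7.21 and 0.0285. The 30 members of cluster 3 had the highest Ccr2 level of these, and they were also highest in Plac8 (5.2 against 1.06 in cluster 2), Lsp1 (2.26 against 0.573) and Cd34, a progenitor antigen (2.95 against 0.247). They were low in Pf4 (0.999 against 11.1), Hmox1 (2.41 against 11.1) and Slc40a1 (2.12 against 9.05). Their Apoe level was 45.8 against 37.2. Fcrls differed less, at 1.48, 0.604, 1.03 and 0.257. Marco ran the other way, at 0.714, 2.46, 0.323 and 6.74, and Cd5l at 0.692, 2.77, 0.308 and 8.50. The clusters were made from these same genes, so the values describe them only.

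The members can also be described by Ccr2 itself, which leads cluster 3 and was counted in 100% of its 30 members, so the following split restates part of the cluster values. At 5000 counts per cell, 74 members held a Ccr2 count and 373 held none. Plac8 was at 4.92 in the former and 0.847 in the latter, Lsp1 at 1.97 and 0.429, and F13a1 at 3.51 and 1.92. Pf4 was at 4.30 and 11.6, Hmox1 at 5.22 and 13.2, and Timd4 at 0.378 and 1.32. Fcrls was alike, at 1.16 and 1.20. A monocyte marker sum at or above the 10th percentile of cluster 3 (13.4, where its median was 26.0) was found in 48 members (10.6%) and 23 other C1q cells (1.9%).

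**Figure D4:**
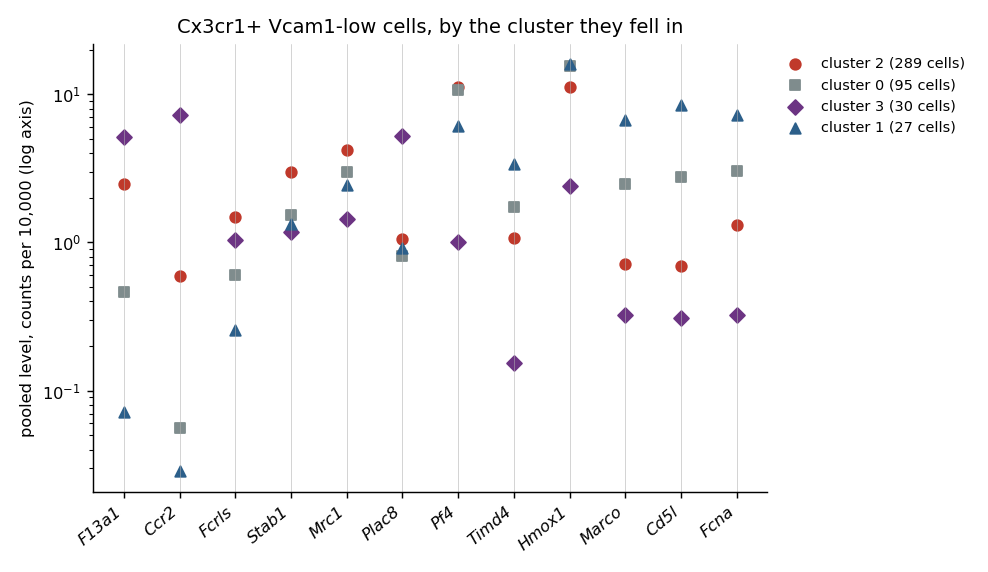
Level of 12 genes, as summed counts per 10000, in the members that fell in clusters 2 (289 cells), 0 (95), 3 (30) and 1 (27). Ccr2 (7.21) and Plac8 (5.2) stand out in cluster 3, and Marco (6.74) and Cd5l (8.50) in cluster 1.

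The bulk libraries show the genes of the members in sorted F4/80+ cells, with replicates. Fewer cells of a type and less RNA per cell cannot be told apart in them. Values are CPM, the counts on a gene scaled to the library's effective total, log2 fold changes carry their SE, and adjusted p-values are 2-sided, from edgeR's quasi-likelihood test over all genes with Benjamini-Hochberg adjustment at 0.05, n = 3 libraries per group. The p-values measure the spread between these libraries. Of 14248 genes tested between EKLF/GFP+ and EKLF/GFP- cells, 18.9% were higher and 25.8% lower in EKLF/GFP+.

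Nearly all genes that led in the members were lower in the EKLF/GFP+ cells. Of the 50 leading genes 49 were tested, 43 were lower, 0 were higher and 6 were not called, with a median log2 fold change of -1.85 beside -0.01 for all genes. The count higher was 0 as well at an unadjusted p under 0.05 and 0 with DESeq2. The 15 named ones were all lower, with a median of -2.63.

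F13a1 was at 11.3, 16.8 and 15.9 CPM in EKLF/GFP+ and 291, 253 and 256 CPM in EKLF/GFP- libraries. All 3 EKLF/GFP+ libraries lay far below, and the log2 fold change was -4.19 (SE 0.16, adjusted p = 5.69e-06). Ccr2 was at 13.9, 17.5 and 18.9 against 212, 178 and 191 CPM, again without overlap, at -3.53 (SE 0.13, adjusted p = 5.69e-06). Ccr1 was at 6.38, 6.38 and 9.62 against 28.9, 25.4 and 26.3 CPM. It too was lower in every EKLF/GFP+ library, at -1.85 (SE 0.17, adjusted p = 9.1e-05). Cx3cr1 was at 1.09, 3.15 and 4.41 against 12.5, 10.8 and 14.3 CPM, lower in all 3 libraries at -2.12 (SE 0.41, adjusted p = 0.00345).

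Fcrls was at 0.653, 1.08 and 1.23 against 2.77, 2.78 and 3.48 CPM. These are low values that did not overlap, and the change was -1.61 (SE 0.27, adjusted p = 0.00193). Mef2c was at 11, 9.78 and 10.8 against 55.0, 46.8 and 54.6 CPM, with all EKLF/GFP+ libraries lower, at -2.31 (SE 0.1, adjusted p = 6.99e-06). Stab1 was at 13.7, 22 and 32.0 against 48.8, 46.4 and 50 CPM, without overlap, at -1.10 (SE 0.26, adjusted p = 0.00904). Apoe was at 44.3, 70.4 and 55.0 against 85.4, 69.3 and 107 CPM, where the groups overlapped, at -0.62 (SE 0.20, adjusted p = 0.0342). Its call was lost without EKLF/GFP+ 1 (adjusted p = 0.106), EKLF/GFP+ 3 (0.109), EKLF/GFP- 1 (0.0814) or EKLF/GFP- 3 (0.0999). Csf1r was lower at -1.75 (SE 0.29, adjusted p = 0.00176), at 25.4, 45.3 and 64.5 against 166, 130 and 160 CPM. Maf was at 1.20, 1.87 and 2.90 against 3.31, 3.48 and 3.35 CPM, at -0.77 (SE 0.30, adjusted p = 0.0731), and passed the threshold only without EKLF/GFP+ 3 (-1.14, adjusted p = 0.0132).

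The genes lowest in the members did not follow that pattern. Of the 15 named, 10 were higher in EKLF/GFP+ cells, 1 was lower (Sipa1l1) and 4 were not called, with a median of 1.01. Of these, 5 were the erythroid transcripts Slc4a1, Hba-x, Hbb-y, Hbb-bs and Hbb-bt, all higher, and the other 5 higher were Clec1b, Paqr9, Il18bp, Fcna and Crip2. Of all 50 lowest, 28 were higher, 6 lower and 16 not called, with a median of 0.9. These 50 were ranked against a class holding the 193 cells chosen for Tmcc2 and Xpo7. They include Hba-a1 and Hba-a2, and also Slc2a1, Dennd4a and Tmem131l, which were among the genes leading cluster 8. No count was made without erythroid genes, so the 50 are not read apart from them. Marco was at 22.6, 66.0 and 79.3 against 18.9, 15 and 37.5 CPM and Cd5l at 14.6, 42.9 and 50.3 against 13.8, 10.4 and 27.2 CPM. EKLF/GFP+ 1 was low in both, and the groups overlapped, at 1.24 (SE 0.48, adjusted p = 0.07) and 1.07 (SE 0.48, adjusted p = 0.109). Both passed the threshold without EKLF/GFP+ 1 (Marco 1.64, adjusted p = 0.00854, and Cd5l 1.48, adjusted p = 0.0146) and without EKLF/GFP- 3 (1.72, adjusted p = 0.0288, and 1.57, adjusted p = 0.0398). Vcam1 (0.89, adjusted p = 0.0695) and Tmem26 (0.99, adjusted p = 0.0985) passed it without EKLF/GFP+ 1 (1.24, adjusted p = 0.0052, and 1.35, adjusted p = 0.017).

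Fcna was at 10.5, 18.8 and 26.4 against 7.80, 5.56 and 10.7 CPM, overlapping by EKLF/GFP+ 1 and EKLF/GFP- 3, at 1.21 (SE 0.35, adjusted p = 0.0225). Clec1b was higher at 0.86 (adjusted p = 0.0225) and Il18bp at 0.90 (adjusted p = 0.0458). These 3 calls were lost without EKLF/GFP+ 2 (adjusted p = 0.0611, 0.0688 and 0.12 for Fcna, Clec1b and Il18bp), EKLF/GFP+ 3 (0.0803, 0.084 and 0.158), EKLF/GFP- 1 (0.0736, 0.0833 and 0.135) or EKLF/GFP- 2 (0.0692, 0.0725 and 0.123), and that of Il18bp also without EKLF/GFP- 3 (0.0531). C1qb did not pass the test, at 16.6, 28.0 and 38.7 against 22.7, 21.2 and 32.6 CPM (0.12, adjusted p = 0.768).

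Markers of other cells moved with this comparison. All 10 monocyte markers tested were lower in EKLF/GFP+ cells (summed 135 to 179 against 1067 to 1239 CPM), as were all 10 neutrophil markers (122 to 316 against 1544 to 2146) and all 7 granulocyte-monocyte progenitor markers (1093 to 1215 against 4539 to 4959). All 11 erythroid markers were higher (5888 to 6710 against 2152 to 2871). Megakaryocyte markers had 7 higher and 1 lower of 8, and eosinophil markers 5 higher and 1 lower of 6. Endothelial (6 of 8), progenitor (6 of 7) and lymphoid (5 of 5) markers were lower, with 0 higher. Of 10 macrophage markers 5 were lower and 0 higher (160 to 350 against 387 to 527). Klf1 was at 101, 90.2 and 87.3 against 34.6, 45.7 and 28.6 CPM (1.35, adjusted p = 0.000316). The part of these cells and of the extraction kit in the result was not tested.

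Other gene lists were uneven as well, beside 18.9% of all genes higher and 25.8% lower. Of 18 Fc receptor and ITAM genes 17 were lower and 0 higher, and of 25 macrophage transcription factors 19 were lower and 0 higher. Of 8 chemokine receptors 6 were lower and 2 higher. Of 18 microglia-list genes 12 were lower and 0 higher, with a median of -1.46. The counts of 0 were 0 for these lists at an unadjusted p under 0.05 too, and 1 transcription factor was higher with DESeq2. Kupffer identity genes had 4 higher and 2 lower of 14, with a median of 0.87, and heme and iron genes 11 higher and 1 lower of 16. The Kupffer shares (28.6% higher, 14.3% lower) and that of chemokine receptors higher (25%) were not far from those over all genes.

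In EKLF-/- against EKLF+/+ cells, 9.71% of 12745 genes were higher and 10.6% lower, with a median of 0.02. These 1237 and 1356 genes became 364 and 622 without EKLF+/+ 1, 440 and 654 without EKLF+/+ 2, 398 and 697 without EKLF+/+ 3, and 450 and 584 without EKLF-/- 3. Klf1 was at 58.7, 64.2 and 57.1 CPM in EKLF-/- and 362, 305 and 376 CPM in EKLF+/+ libraries, at -2.53 (SE 0.12, adjusted p = 7.24e-06). Most leading genes were not called. Of 49 tested, 7 were higher, 2 were lower and 40 were not called, with a median of 0.31. The count depended on single libraries. The number higher was 1, 4 and 2 without EKLF+/+ 1, 2 and 3, 12 without EKLF-/- 1 and 1 without EKLF-/- 3. The number lower was 1 without EKLF+/+ 2, EKLF+/+ 3 or EKLF-/- 3, and the median was 0.02 without EKLF-/- 2.

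Ccr2 was at 87.5, 102 and 83.3 CPM in EKLF-/- and 50.8, 53.2 and 57.9 CPM in EKLF+/+ libraries. All 3 EKLF-/- libraries were higher, at 0.75 (SE 0.11, adjusted p = 0.0038). Among the others higher were Alox5ap, which starts leukotriene synthesis (0.70, adjusted p = 0.0237), Myo1f, a leukocyte myosin (0.55, adjusted p = 0.0231), Coro1a, an actin-binding protein (0.68, adjusted p = 0.0432), Ncf1, a subunit of the phagocyte oxidase (0.59, adjusted p = 0.0321), and Hspa1b (1.35, adjusted p = 0.0313). The 2 lower were Dusp1, a phosphatase induced by stress, at 40.2, 53.5 and 59.3 against 102, 106 and 105 CPM (-1.03, SE 0.14, adjusted p = 0.00259), and the immediate early factor Egr1 (-1.20, adjusted p = 0.0296).

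F13a1, Cx3cr1, Fcrls, Ccr1, Csf1r, Mef2c and Apoe were not called between the genotypes. F13a1 was at 184, 234 and 205 against 163, 190 and 173 CPM (0.24, SE 0.12, adjusted p = 0.172). Cx3cr1 was at 34.5, 38.8 and 30.6 against 23.1, 33.2 and 26.5 CPM (0.32, SE 0.16, adjusted p = 0.176). The groups overlapped for both. Fcrls was at 5.14, 4.20 and 2.85 against 2.5, 3.80 and 2.07 CPM (0.53, SE 0.31, adjusted p = 0.232), and Ccr1 at 25, 40.7 and 26.9 against 17.4, 23.6 and 23.8 CPM (0.51, SE 0.21, adjusted p = 0.115). Csf1r was at 178, 236 and 176 against 144, 171 and 137 CPM (0.38, adjusted p = 0.0931). Every EKLF-/- library lay above the EKLF+/+ ones for Ccr1 and Csf1r, but neither passed the test. Mef2c was below in every EKLF-/- library, at 67.1, 41.2 and 60.0 against 72.8, 107 and 78.3 CPM (-0.62, SE 0.21, adjusted p = 0.0647), and passed the test without EKLF-/- 1 (adjusted p = 0.0298). Apoe was at 261, 450 and 259 against 216, 285 and 230 CPM, overlapping (0.41, adjusted p = 0.208).

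The genes lowest in the members were more often called. Of the 15 named 14 were tested, 10 were lower in EKLF-/- cells and 0 higher (0 also at an unadjusted p under 0.05 and with DESeq2), with a median of -1.02. Of all 50 lowest 45 were tested, 22 were lower, 1 was higher (Car2, a carbonic anhydrase, 0.96, adjusted p = 0.00452) and 22 were not called, with a median of -0.89. Globin genes were among them, with Hba-x at -5.37 and Hbb-bs at -5.28, and these are erythroid transcripts. The 50 also held the cluster 8 genes Slc2a1, Dennd4a and Tmem131l, and no count was made without erythroid genes. Cd5l was at 8.69, 11.4 and 9.94 against 16.0, 18.8 and 26.6 CPM, lower in every EKLF-/- library (-1.03, SE 0.21, adjusted p = 0.0136). Timd4 was at 2.15, 1.99 and 1.23 against 4.62, 6.53 and 8.88 CPM, also without overlap (-1.89, SE 0.31, adjusted p = 0.00559). Tmem26 was at 0.695, 0.459 and 0.385 against 2.22, 1.80 and 3.49 CPM (-2.24, SE 0.39, adjusted p = 0.00707).

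Il18bp was at 2.85, 2.60 and 3.08 against 5.27, 4.80 and 7.30 CPM (-1.02, adjusted p = 0.0194), and Fcna at 5.14, 8.10 and 4.70 against 10.2, 11.7 and 14.5 CPM (-1.02, adjusted p = 0.0242). Neither overlapped. The call of Il18bp was lost without EKLF+/+ 1 (adjusted p = 0.0523), EKLF+/+ 3 (0.0648) or EKLF-/- 3 (0.057). That of Fcna was lost without EKLF+/+ 2 (0.0671), EKLF+/+ 3 (0.082) or EKLF-/- 3 (0.0839). Without EKLF-/- 3 Cd5l (0.0525) and Paqr9 (-0.95, adjusted p = 0.0101 with all libraries, 0.0503 without) were lost too. Marco was at 6.05, 16.6 and 8.01 against 12.5, 16.7 and 27.3 CPM (-0.89, SE 0.40, adjusted p = 0.137). Its EKLF-/- 2 library lay within the EKLF+/+ range, and Marco passed the test without it (-1.44, adjusted p = 0.00965). Vcam1 was at 14.3, 15.1 and 13.3 against 15.6, 16.9 and 24.4 CPM, without overlap but short of the threshold (-0.41, adjusted p = 0.142).

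Markers of other cells moved here as well, beside 9.71% of all genes higher and 10.6% lower. Of 11 erythroid markers 7 were lower in EKLF-/- cells (summed 3984 to 5701 against 10116 to 11677 CPM), and of 7 granulocyte-monocyte progenitor markers 5 were higher (6750 to 12806 against 4906 to 6435). Of 10 monocyte markers 2 were higher (776 to 1222 against 606 to 745), and of 8 endothelial markers 4 were lower (161 to 165 against 221 to 251). Of 6 mesenchymal markers 5 were lower (21.2 to 32.9 against 37.6 to 137). Neutrophil markers had 3 higher and 1 lower (2854 to 5080 against 1704 to 2653), and macrophage markers 1 lower (588 to 951 against 516 to 634). The 1 lower of 10 in each of these lists lay near the share over all genes. The part of these cells in the result was not tested. Among the functional lists, Kupffer identity genes had 1 higher and 4 lower of 14, and Fc receptor and ITAM genes 7 higher and 0 lower of 18. Chemokine receptors had 3 higher and 1 lower of 8, and immediate early and stress genes 1 higher and 5 lower of 15. Shares near those over all genes were Kupffer genes higher (7.14%), chemokine receptors lower (12.5%) and immediate early genes higher (6.67%). Mrc1 was lower, at 26.0, 18 and 17.6 against 34.2, 34.3 and 31.7 CPM (-0.70, SE 0.17, adjusted p = 0.0243).

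**Figure D5:**
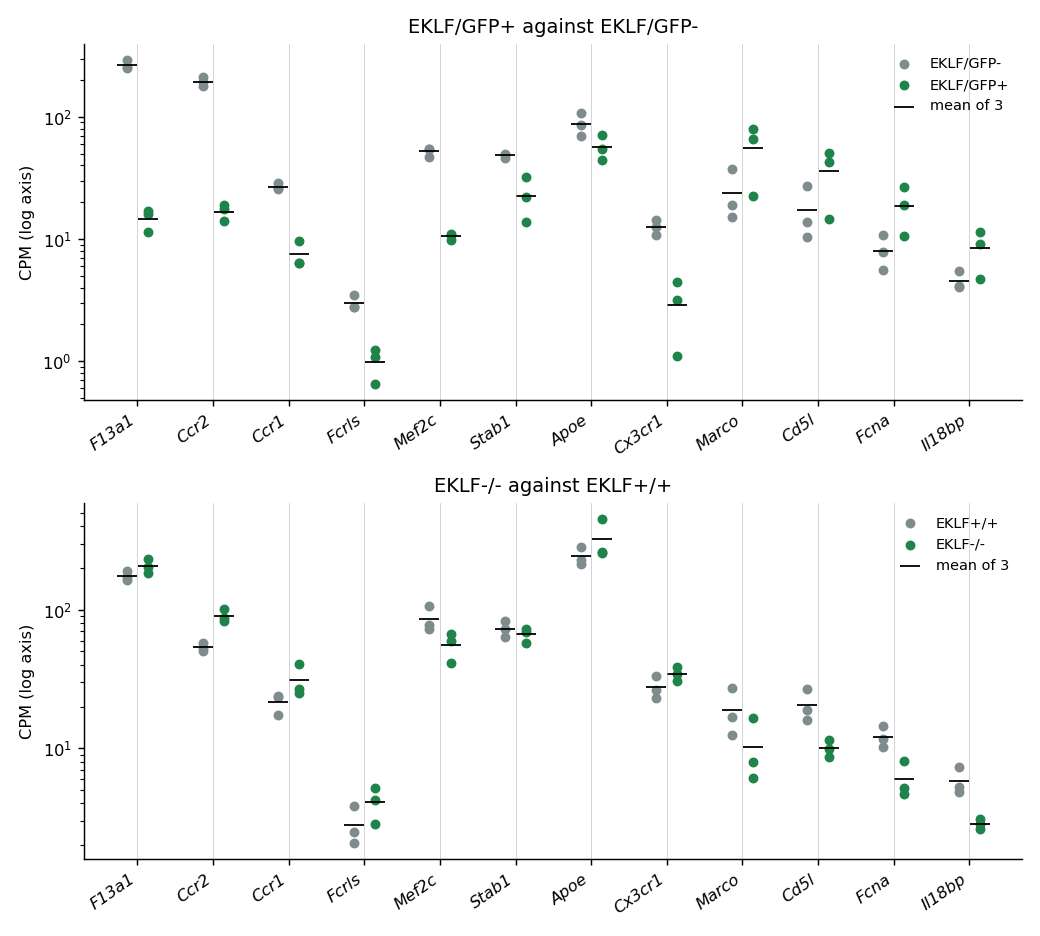
CPM of 12 genes, on a log axis, in each bulk library of both comparisons, 1 point per library with the mean of 3 as a bar. F13a1 and Ccr2 lie far lower in EKLF/GFP+ than EKLF/GFP- libraries, and Ccr2 is higher and Cd5l lower in all 3 EKLF-/- libraries than in EKLF+/+.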

How the data were processed

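The authors prepared the single-cell library with 10x Chromium 3′ v3 chemistry and made its gene counts with Alevin against GRCm38 and GENCODE vM24, so the deposited values are estimated counts per gene and cell and need not be whole. For EKLF+/+ and EKLF-/- the authors deposited counts per gene from STAR alignments to mm10 and htseq-count, and for EKLF/GFP+ and EKLF/GFP- they deposited Salmon's estimated counts per transcript on GRCm38, which were summed here to genes by GENCODE vM21 and rounded. The 2 tables were made separately, so tests stayed within a table. Between 67.2% and 72.7% of the EKLF+/+ and EKLF-/- counts were assigned to no gene by the authors' counting, and 0.099% to 0.114% of the GFP counts were on transcripts with no gene in vM21. Both were left out. Counts ran from 10695514 to 15362161 and from 22747826 to 28767655 per library. In the tables, 5 columns that repeat libraries were not used.

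Of 3096 barcodes, 3 with under 200 genes were dropped. Levels were pooled counts per 10000, with exact Poisson limits, and shares carry exact binomial (Clopper-Pearson) limits. Ratios are printed as they are, and were ranked, with medians over lists taken, after adding 0.05 to each level, and the text names the first 15 genes in each direction among those at 0.5 and in 25% of cells, the first 10 against all other cells, the marker genes, and members of the gene lists. Cells were clustered with Seurat 5.3.0 (4000 variable genes, 30 components, resolution 0.8), and clusters were named X-like only from the marker lists. Depth was matched by thinning cells to 5000 counts.

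Bulk genes that reached 10 counts in 3 or more libraries were tested with edgeR 4.0.16 (R 4.3.3, TMM, quasi-likelihood F test, 2-sided, Benjamini-Hochberg over all genes, threshold 0.05). DESeq2 1.42.0, its size factors, no filter, a replicate block and leaving out each library were alternatives. Other steps used Python 3.11.15 with scipy 1.17.1 and scanpy 1.11.5. The rule, gene lists and tests were chosen with earlier results of these data known. Cells sharing 1 library are not replicates, so no test was run between cells. The labels list the 3 libraries of a group as separate samples and do not tie them to litters. Some genes of the lists are not reported here by name.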

Additional observations from a re-analysis of the deposited data

How the results depend on the processing

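The number of members moved with the limits: 390 at a C1q sum of at least 20, 557 at Cx3cr1 of at least 1 and 303 at 4, and 389 at Vcam1 under 2.5 and 534 under 10 counts per 10000. With genes from a level of 0.2, 78 were 2-fold higher and 146 lower. The number lower was 60 against the Vcam1-high cells only and 18 against the cells low in Vcam1 and Cx3cr1 only, both chosen after seeing the data. Of the leading genes in EKLF/GFP+ against EKLF/GFP- cells, 19 of the first 20 and 83 of the first 100 were lower, and 1 was higher among the first 100 and 1 among those of members outside cluster 3. The median was -2.35 over the first 20 and -1.55 for the list against all other cells. In EKLF-/- against EKLF+/+ cells, 1 of the first 20 and 17 of the first 100 were higher, and 0 of the first 20 and 1 of the list against all other cells were lower. Without 1 library the leading genes numbered 41 to 43 lower and 0 to 0 higher in the former (median -2.03 to -1.71) and 1 to 12 higher and 1 to 3 lower in the latter (median 0.02 to 0.4). Over all genes that range was 2003 to 2815 higher and 3026 to 3454 lower, and 364 to 1755 higher and 584 to 1892 lower. Same-numbered libraries did not deviate together (correlations -0.0888 to 0.0564), so the numbers were not taken to pair libraries. With a replicate block 6 leading genes were higher and 1 lower in EKLF-/- cells, 857 and 1037 genes were called higher and lower over all genes, and Marco (1.16, adjusted p = 0.0254), Cd5l (1.01, adjusted p = 0.0495) and Vcam1 (0.80, adjusted p = 0.0262) passed the edgeR threshold in EKLF/GFP+ cells. Marco (adjusted p = 0.0333) and Vcam1 (adjusted p = 0.0346) also passed without the count filter, and Mef2c passed in EKLF-/- cells without it (adjusted p = 0.0422) and with DESeq2 (adjusted p = 0.0226). Over the 30 genes named against the other C1q cells, 111 single-cell ratios under the alternatives moved past their counting limits or, without the cells holding RNA of other types, by over about 10%, and 189 did not. No direction reversed. The causes were not tested. Leaving out called doublets gave no value of its own because 0 were called. The single-cell values rest on 1 library and cannot show variation between litters, and genes under a level of 0.5 were described at counting precision only.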

Other observations

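The spread over the members differed by gene. At 5000 counts in each of 447 members, the median of the variance over the mean was 1.1 over 2954 genes, with a 95th percentile of 2.1. This measure can rise with the mean, so it does not rank genes of different level by unevenness. Cx3cr1, whose spread the rule's limit cut, was at 1.61, Fcrls at 1.79, Maf at 1.92, Csf1r at 2.17 and C1qb at 2.33. Apoe stood at 19.6, Hmox1 at 11.6, Pf4 at 9.9 and the chemokines Ccl4 and Ccl3, which draw leukocytes, at 8.44 and 5.44. The mean was 17.6 counts for Apoe and 0.595 for Fcrls. Transcripts of other cells held the highest values: the embryonic globin Hbb-y at 322 and the neutrophil calprotectin gene S100a9 at 86.7, which reached 194 of 5000 counts in a member. Afp, made by hepatoblasts, was at 55.5.

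Some leading genes were found in the same members. A Fcrls count was present in 50.9% of members with a F13a1 count and 25.7% of those without, and a Stab1 count in 73.0% and 44.7%. A Mrc1 count was present in 82.1% of members with Fcrls and 60.5% of those without. A Ccr2 count was present in 23.3% of members with F13a1 and 12.7% of those without, but in 17.3% and 16.2% of members with and without Fcrls. Ccr1 was counted in 33.8% of members with Ccr2 and 19.3% of those without. All cells were thinned to the same number of counts, and they share 1 library. Cytokine receptors as a list were close to the other C1q cells, with 0 of 5 genes at a level of 1 or more past 2-fold, and all 19 of the list summed to 19.2 against 15.7. Il4ra, a subunit of the interleukin-4 receptor, was at 0.619 against 0.342, and Il17ra, for interleukin-17, at 0.498 against 0.247. Among integrins, Itgam, the CD11b chain, was at 0.336 against 0.134 and Itga6, a laminin receptor chain, at 1.19 against 0.614, while 0 of 7 integrin genes at a level of 1 or more passed 2-fold.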
